A study of Mus musculus with 2 samples.

Results

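The cushion mesenchyme transition factors are 10 transcription factors, Twist1, Snai1, Snai2, Zeb1, Zeb2, Msx1, Msx2, Prrx1, Prrx2 and Scx, that act when endocardial cells become mesenchyme and in the valve mesenchyme that follows. They were chosen by name: a gene row was taken where its Ensembl gene ID, without version, carries 1 of these symbols in the GENCODE M21 annotation. All 10 matched 1 row each, of 43346 gene rows in all. The samples were whole hearts of B6NCrl mouse embryos at 12.5 days, pooled from males and females and labelled healthy, with no mutation or treatment named. Total RNA was sequenced in 2 libraries, labelled biological replicates 1 and 2, which form 1 group. The design therefore holds no contrast between conditions, and the values below are levels, ratios between genes within a library and differences between the replicates. RNA came from whole tissue, so fewer cells of a type and less RNA per cell cannot be told apart.

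Heart valves and septa begin as cushions, swellings of extracellular matrix between myocardium and endocardium in the atrioventricular canal and outflow tract. BMP, TGF-beta and Notch signals lead some endocardial cells to loosen their junctions, leave the sheet and fill the cushion as mesenchyme. The SNAIL and ZEB zinc finger proteins repress cadherin and other junction genes through E-box sites, the basic helix-loop-helix (bHLH) proteins TWIST1 and scleraxis (Scx) bind E-boxes together with E proteins, and the MSX and PRRX homeodomain proteins are known from mesenchyme of the cushions, limb and face. Cushions and outflow tract also receive neural crest cells.

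The libraries held 33480066 reads on mouse genes in replicate 1 and 30665239 in replicate 2, and 3 reads, taken as the floor of detection, correspond to 0.0896 and 0.0978 CPM, a gene's reads scaled to a common library total. Their counts differed by more than sampling noise (chi-square per degree of freedom 4.39 over 16625 genes), so they are not 1 library deposited again. The labels alone make them separate biological samples. Levels are in TPM, which also scale for transcript length and allow comparison between genes. The labelled tissue bore the defining heart markers: all 7 listed cardiomyocyte genes were detected, led by Actc1 at 9805 ± 76.9 TPM, Myl7 and Tnnt2, as were all 8 endocardial and all 8 epicardial markers (SD, n = 2 throughout).

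All 10 factors were detected, meaning 1 TPM or more in both libraries, against 57.5% of the 21461 nuclear protein-coding genes. Because the members were chosen with earlier results of these data known, this count only describes them. The members were moderate in level. Their means ran from 6.52 TPM for Scx to 50.4 TPM for Prrx2, a 7.73-fold range, with a median of 16.6 TPM, beside 18.9 TPM for the 12344 detected nuclear protein-coding genes. Neighbours in the order were called apart where the log2 ratio of TPM + 0.1 pointed the same way in each library and its mean exceeded 3 standard errors, the error coming from the spread between the libraries of genes of like abundance. By this rule 5 of 9 neighbouring pairs were apart. The count was 3 without replicate 1, 3 without replicate 2, 3 at 4 standard errors and 2 over coding transcripts, so the steps below hold for the TPM of both libraries at 3 standard errors. Prrx2 stood first, then Zeb1, then Zeb2. Snai2, Msx1 and Snai1 followed with no neighbours apart, Twist1 lay below Snai1, and Msx2, Prrx1 and Scx closed the order with no neighbours apart.

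**Figure D1:**
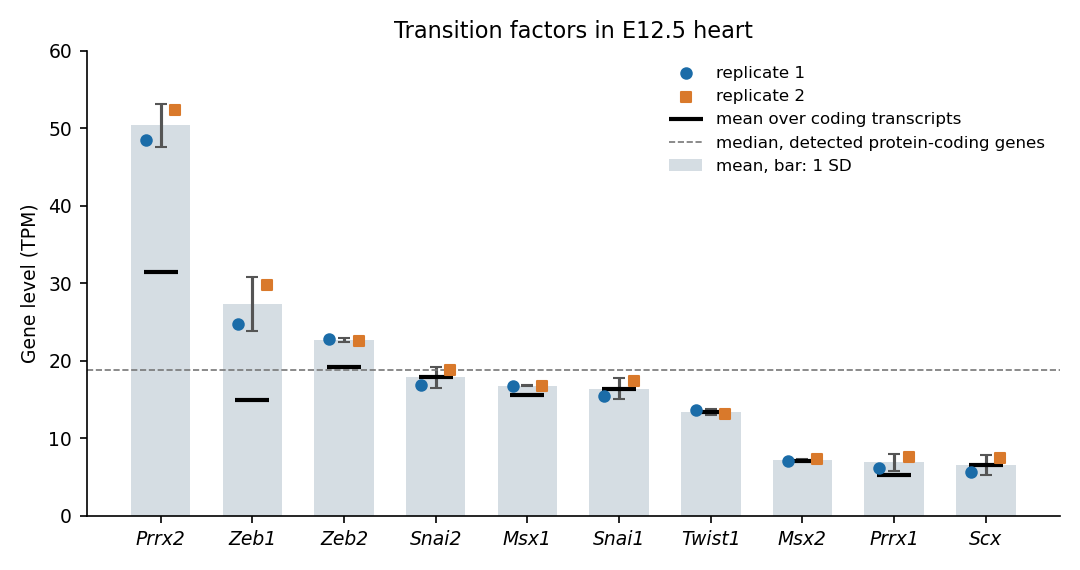
Levels of the 10 transition factors in TPM (vertical axis), ordered by mean, with circles for replicate 1, squares for replicate 2, grey bars for the mean, error bars for 1 SD and black dashes for the mean over transcripts annotated as protein coding. Prrx2 stands highest at 50.4 TPM, and the black dash lies well under the bar for Prrx2, at 31.4 TPM, and for Zeb1, at 15.0 TPM.

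Twist1 (chr12:33957671-33959829, plus strand, mm10) encodes a bHLH factor that promotes mesenchymal state and growth in cushion cells. It had 13.7 and 13.1 TPM in replicates 1 and 2, from 490 and 425 reads. Its closest relative, Twist2, which is known from dermis and other mesenchyme, had 2.15 and 2.44 TPM. The Twist1 level was 5.87 ± 0.694 times that of Twist2, and the pair was apart (log2 ratio 2.50, standard error 0.18). Scx (chr15:76457452-76459458, plus strand) encodes scleraxis, the bHLH factor of tendon progenitors that is also known from valve mesenchyme. It was the lowest of the 10, with 5.63 and 7.40 TPM from 138 and 164 reads. Its bHLH relative Tcf15, known from somites, had 3.36 and 3.83 TPM, and Scx over Tcf15 was 1.80 ± 0.181-fold and apart (log2 ratio 0.83, standard error 0.16). The Scx gene lies wholly within an intron of Bop1, a ribosome biogenesis gene on the opposite strand that had 35.7 and 32.7 TPM. No exon base is shared between them. No source used here states whether counting used strand, so unspliced Bop1 RNA over Scx exons could not be told apart from Scx RNA.

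Among the zinc finger factors, the SNAIL genes were not apart from each other. Snai1 (chr2:167538195-167542814, plus strand) had 15.4 and 17.4 TPM, from 554 and 565 reads, and Snai2 (chr16:14705852-14709385, plus strand), the gene for Slug, had 16.9 and 18.8 TPM, from 772 and 774 reads. Snai1 was lower than Snai2 in both libraries, but the ratio of 0.919 ± 0.0107 was within 3 standard errors (log2 ratio -0.12, standard error 0.08). The third SNAIL gene, Snai3, had 1.93 and 1.79 TPM. SNAIL proteins recruit corepressors through the SNAG stretch at their very start. The first 9 codons of the Snai1 and Snai2 coding sequences are shown here because both proteins carry the stretch. The amino acids they encode are not identical. The codons differ at 2 of 27 bases, given in capitals (5′ to 3′, GENCODE M21):
Snai1: atgccgcgctccttcctggtcaGgaaG
Snai2: atgccgcgctccttcctggtcaAgaaA
The transcripts were otherwise readily told apart: the longest run identical between them was 23 bases, and no read of either gene was in doubt by the authors' posterior SD of the count, which was 0 in both libraries.

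The ZEB genes had higher means than the SNAIL genes in TPM. Over transcripts annotated as protein coding alone, a sum chosen after the data were seen, Zeb1 averaged 15.0 ± 0.728 TPM, below Snai1 at 16.4 ± 1.39 TPM and Snai2 at 17.8 ± 1.31 TPM. Their proteins carry separate clusters of zinc fingers and repress through CtBP and other partners. Zeb1 had 24.8 and 29.8 TPM, from 2398 and 2231 reads. Zeb2 (chr2:44983632-45117395, minus strand) had 22.8 and 22.5 TPM, from 2467 and 2352 reads. Zeb1 was above Zeb2 in both libraries, by 1.20 ± 0.166-fold, with log2 ratios of 0.12 in replicate 1 and 0.40 in replicate 2. The pair was apart in this order (mean log2 ratio 0.26, standard error 0.07 from genes of like abundance). This order depended on which transcripts were summed. In coding transcripts Zeb1 had 15.5 and 14.5 TPM and Zeb2 had 19.5 and 18.9 TPM. Zeb1 was then the lower in both libraries, at 0.781 ± 0.0227 of Zeb2, and again apart (log2 ratio -0.36, standard error 0.08). In reads without length scaling, Zeb1 had 71.6 and 72.8 CPM and Zeb2 had 73.7 and 76.7 CPM, not apart.

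The transcript tables give the parts of these sums. Zeb1 is listed with 11 transcripts. The full-length coding transcript Zeb1-201 carried 60.5% and 44.8% of the gene's TPM in replicates 1 and 2 (52.6% ± 11.0), but 84.3% and 72.9% of its reads, since the other transcripts are short. The retained-intron transcript Zeb1-204 carried 17.5% and 18.6% of TPM, and the processed transcript Zeb1-207 carried 4.84% and 13.6%. Transcripts outside the protein-coding type, that is retained introns, processed transcripts and targets of nonsense-mediated decay, summed to 37.5% of Zeb1 TPM in replicate 1 and 51.4% in replicate 2. Zeb2, with 14 listed transcripts, was steadier: Zeb2-201 carried 42.8% and 42.6% of TPM, and transcripts outside the coding type summed to 14.8% and 15.9%. The antisense gene Zeb2os shares 653 exon bases with Zeb2 and was at 0.34 TPM in each library. Zeb1 shares 198 exon bases with Gm10125, a gene of the opposite strand at 1.13 and 1.05 TPM. As for Scx, the strand setting is not known, so how reads over these shared bases were divided could not be checked.

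**Figure D2:**
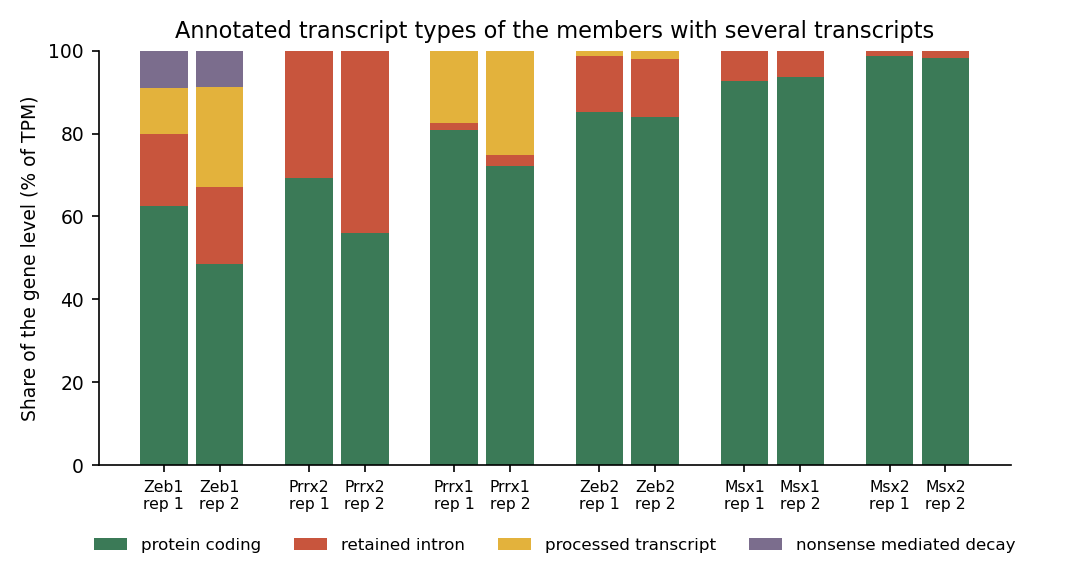
Share of each gene's TPM (vertical axis, percent) held by transcripts of each annotated type, in replicates 1 and 2, for the 6 members with several listed transcripts. Coding transcripts held 48.6% to 62.5% of Zeb1 and 56.0% to 69.3% of Prrx2, and at least 92.7% of Msx1 and Msx2.

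The MSX homeodomain factors are known targets of BMP signalling in cushions. Msx1 (chr5:37820485-37824583, minus strand) had 16.7 and 16.8 TPM, from 723 and 657 reads, and Msx2 (chr13:53466884-53473074, minus strand) had 7.08 and 7.31 TPM, from 392 and 365 reads. The Msx1 level was 2.33 ± 0.0438 times that of Msx2, and the pair was apart (log2 ratio 1.21, standard error 0.10). Msx3, known from the dorsal neural tube, had 1 read in replicate 1 and 0 in replicate 2, under the floor. A single spliced transcript carried nearly all of both: Msx1-201 held 93.2% ± 0.744 of Msx1 TPM and Msx2-201 held 98.5% ± 0.359 of Msx2 TPM, the remainder being 1 retained-intron transcript each. The longest run identical between the Msx1 and Msx2 transcripts was 22 bases.

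The PRRX pair had the widest ratio in TPM of the 6 pairs compared. Both are paired-related homeodomain factors of mesenchyme. Prrx2 (chr2:30834972-30881251, plus strand) had 48.4 and 52.3 TPM, from 1206 and 1062 reads. Prrx1 (chr1:163245119-163313710, minus strand) had 6.13 and 7.63 TPM, from 678 and 698 reads on a much longer transcript. Prrx1 over Prrx2 was 0.136 ± 0.0137, so Prrx2 was 7.38 ± 0.740 times Prrx1, and the pair was apart (log2 ratio -2.86, standard error 0.09). Over coding transcripts alone Prrx1 had 4.95 and 5.51 TPM and Prrx2 had 33.6 and 29.3 TPM, a ratio of 0.168 ± 0.0288 and again apart. In reads without length scaling the ratio was far nearer to 1: Prrx1 had 20.3 and 22.8 CPM and Prrx2 had 36.0 and 34.6 CPM, so Prrx2 was 1.65 ± 0.182 times Prrx1.

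Prrx1 ends in alternative ways, and the forms had unlike levels. The 245-codon form Prrx1-201, which carries the C-terminal OAR motif, held 37.8% and 43.1% of Prrx1 TPM. The 200-codon form Prrx1-204 held 31.6% and 25.7%. The 217-codon form Prrx1-202 held 11.3% and 3.41%. Both Prrx1-204 and Prrx1-202 lack the OAR motif. The Prrx1-201 share of TPM was the highest in both libraries, at 40.5% ± 3.73 against 28.7% ± 4.21 for Prrx1-204. By reads this order turned in replicate 1: Prrx1-201 held 39.3% and 48.9% in replicates 1 and 2, and Prrx1-204 held 43.4% and 38.5%. The division between Prrx1-201 and Prrx1-202 is soft, since the authors' posterior SD was 41.6 and 33.9 reads for Prrx1-201, on 266 and 341 reads, and 45.4 and 36.6 reads for Prrx1-202, on 80.1 and 27.4 reads. It was firmer for Prrx1-204, at 7.68 and 7.70 reads on 294 and 269. The 3 endings start from the same exon; the last 30 shared bases are in lower case and the bases that follow in each form are in capitals:
Prrx1-201: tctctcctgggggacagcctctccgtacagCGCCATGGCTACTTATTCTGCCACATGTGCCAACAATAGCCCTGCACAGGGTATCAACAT
Prrx1-202: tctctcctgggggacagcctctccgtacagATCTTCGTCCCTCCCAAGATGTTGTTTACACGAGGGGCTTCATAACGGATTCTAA
Prrx1-204: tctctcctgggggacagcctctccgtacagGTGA
After the shared exon the coding sequence runs on for 136 bases in Prrx1-201, 52 in Prrx1-202 and 1 in Prrx1-204, before the stop codon. The 72-base exon at chr1:163253977-163254048, which holds the Prrx1-202 ending, lies in transcripts that summed to 28.7% and 28.6% of Prrx1 TPM in the 2 libraries. These are Prrx1-202 and the processed transcript Prrx1-205, whose own share was 17.5% and 25.2%. By reads the same transcripts summed to 16.4% in replicate 1 and 11.2% in replicate 2. Gm26523, a long non-coding gene within the Prrx1 span on the same strand, had 1.90 and 2.16 TPM and shares no exon base with Prrx1.

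Prrx2 carried, among the members, the second-highest share of TPM outside coding transcripts after Zeb1. Prrx2-201, the main coding form, held 62.2% and 51.5% of TPM, and the retained-intron transcripts Prrx2-203 and Prrx2-204 held 16.4% and 23.8%, and 14.3% and 20.3%. In reads, which are not scaled for the shortness of those transcripts, Prrx2-201 held 79.2% and 72.8%. Prrx2-204 reads on from exon 2 into 66 bases of the following intron, and Prrx2-203 begins 173 bases before exon 3, within that intron.

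SNAIL and ZEB factors recognise E-boxes of the form CACCTG, which reads CAGGTG on the other strand. Both strands of the 300-base RefSeq promoter windows (250 bases before to 50 after a start, GRCm38.p6) were searched for it. It stood in 2 of 10 windows, which belong to 7 members, and in 20.2% of all 32851 windows of the same length. The stretches of 60 bases around the 2 matches are shown on the gene's strand, with the E-box in capitals. In Snai1 it begins 126 bases before the start (chr2:167538042-167538101, plus strand) and in Msx1 it begins 210 bases before the start (chr5:37824763-37824822, minus strand), both upstream of the annotated gene:
Snai1: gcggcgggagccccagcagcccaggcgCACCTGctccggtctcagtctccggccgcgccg
Msx1: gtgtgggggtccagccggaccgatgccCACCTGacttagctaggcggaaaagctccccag
A match describes the letters only, and no binding was measured.

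None of the 10 members was set apart between the libraries, that is, none had a log2 ratio of replicate 2 over replicate 1 more than 3 robust SD from the median of genes of like abundance. Over the 20321 genes with a mean of 0.1 TPM or more, 4.44% were. In TPM, 8 of 10 members were higher in replicate 2 (median log2 ratio 0.13), beside 57.3% of detected genes (median 0.02). In CPM 7 of 10 were higher in replicate 2 (median 0.04), beside 51.4% of detected genes (median 0.0035). Over coding transcripts 6 of 10 were (median 0.03), beside 51.1% of detected genes (median 0.0039). Scx had the largest log2 ratio, 0.39, at 2.13 robust SD. In CPM its log2 ratio was about the same, 0.37, but only 1.37 robust SD from genes of like CPM. Zeb1 stood furthest from like genes, with a log2 ratio of 0.26 at 2.67 robust SD, and the authors' credibility bounds for its TPM, 23.4 to 26.9 and 27.9 to 32.2, did not overlap. In CPM, however, the Zeb1 log2 ratio was 0.02, and over coding transcripts it was -0.10. The effective length that the authors' model gave to Zeb1 was 4091 bases in replicate 1 and 3511 bases in replicate 2. For Prrx2 the log2 ratio was 0.11 in TPM, -0.06 in CPM and -0.20 over coding transcripts, at 1.17, -0.70 and -2.65 robust SD. Its effective lengths were 1054 and 951 bases. For both genes the sign over coding transcripts was the opposite of that in TPM.

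The share of TPM outside coding transcripts was higher in replicate 2 in 5 of the 6 members with several transcripts. It was 37.5% and 51.4% for Zeb1, 30.7% and 44.0% for Prrx2 and 19.2% and 27.8% for Prrx1, in replicates 1 and 2. It was 14.8% and 15.9% for Zeb2 and 1.27% and 1.78% for Msx2, and lower in replicate 2 for Msx1, at 7.31% and 6.25%. Over 6827 detected nuclear protein-coding genes with several transcripts and more than 0.5% outside coding ones in either library, the share was higher in replicate 2 in 51.3%, with medians of 14.3% and 14.5%. The libraries also differed in markers of other cells. All 8 hepatocyte markers, led by Afp with 99.3 and 18.2 TPM, Trf and Apoa2, were lower in replicate 2, with a summed level of 258 TPM in replicate 1 and 72.1 TPM in replicate 2. All 8 red cell markers were lower in replicate 2 as well, with sums of 67789 and 61018 TPM, led by Hbb-y, Hba-a2 and Hba-a1. The part of these differences in the members' values was not tested.

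**Figure D3:**
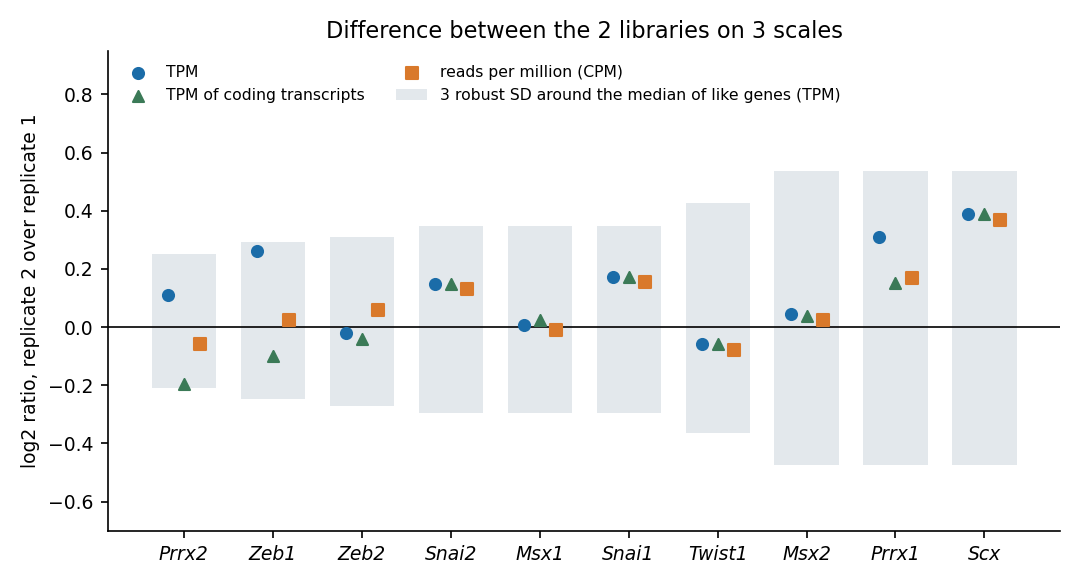
Log2 ratio of replicate 2 over replicate 1 (vertical axis) for each member in TPM (circles), in TPM of coding transcripts (triangles) and in CPM (squares); grey bars span 3 robust SD on either side of the median of genes of like TPM. All circles lie within the grey bars, and for Zeb1 the ratio is 0.26 in TPM but 0.02 in CPM.

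Other family members were low or absent. Of 10 listed relatives, 4 were detected: Shox2, a homeodomain factor of the sinus node region, at 4.65 ± 0.707 TPM, Tcf15 at 3.60 ± 0.332 TPM, Twist2 at 2.30 ± 0.205 TPM and Snai3 at 1.86 ± 0.0990 TPM. Ferd3l was listed at 0, and Scrt1, Scrt2 and Msx3 lay under 0.1 TPM in both libraries. Each of the 10 relatives had a lower mean TPM than all 10 members. By reads this did not hold, since Shox2 had 309 and 232 reads in replicates 1 and 2 and Scx had 138 and 164. Members and lists were chosen with earlier results of these data known, so this separation only describes the lists.

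The dimer partners of Twist1 and Scx were abundant. E proteins, the bHLH proteins with which both pair, were all detected: Tcf3 at 71.8 ± 1.90 TPM, Tcf4 at 48.0 ± 1.68 TPM and Tcf12 at 37.7 ± 2.15 TPM. Their sum, 157 ± 5.73 TPM, was 7.91 ± 0.0547 times the sum of Twist1 and Scx. ID proteins bind E proteins and keep them from DNA, and they were higher still. Id2 had 346 ± 3.02 TPM, Id3 262 ± 0.375 TPM, Id1 72.8 ± 1.60 TPM and Id4 6.39 ± 0.205 TPM. The ID sum was 4.37 ± 0.133 times the E-protein sum, with 4.46 in replicate 1 and 4.27 in replicate 2. These are levels over the whole heart and do not say which cells hold them.

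All 12 listed corepressors of SNAIL and ZEB were detected. For this and the lists below, the share detected over nuclear protein-coding genes was 57.5%. Ctbp1, the C-terminal binding protein used by ZEB factors, had 169 ± 3.01 TPM, and the histone deacetylases Hdac2 and Hdac1 had 152 ± 6.64 and 117 ± 3.09 TPM. The list of signals, which also holds the receptor Notch1 and the enzyme Has2, was detected in full, 14 of 14, and 10 were detected at 5 TPM. Tgfb2 led with 58.2 ± 2.79 TPM, followed by Bmp7 with 56.2 ± 1.88 TPM and Bmp4 with 26.0 ± 1.90 TPM. Of the receptors and SMADs, 19 of 19 were detected, led by the TGF-beta co-receptor Eng at 133 ± 5.24 TPM, the neuregulin receptor Erbb2 at 54.6 ± 0.375 TPM and the inhibitory Smad6 at 48.5 ± 3.68 TPM. Among 19 other transition factors, 18 were detected, with Gata4 at 159 ± 5.73 TPM, Tbx20 at 90.1 ± 3.75 TPM and Foxp1 at 75.7 ± 1.48 TPM highest. Meox2 was the exception, at 0.41 ± 0.0849 TPM. Each of these lists held genes above the median member.

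The cadherins were spread widely. E-cadherin (Cdh1), the textbook target of SNAIL and ZEB repression, had 1.14 and 0.70 TPM and was the only 1 of 14 genes on its list not detected. All 14 were detected at 0.5 TPM, at 1 CPM or in replicate 1 alone. N-cadherin (Cdh2), the cadherin of myocardium and mesenchyme, had 182 and 187 TPM, Cdh11 of mesenchyme had 85.1 ± 2.62 TPM, and VE-cadherin (Cdh5) of endothelium and endocardium had 38.8 and 41.5 TPM. The level of Cdh2 was 4.59 ± 0.142 times that of Cdh5. Acta2 at 957 ± 34.4 TPM, Vim at 776 ± 31.7 TPM and Fn1 at 352 ± 17.0 TPM were the highest of the list, and each of these is also made by heart cells other than cushion mesenchyme. Cushion and valve matrix genes were detected in full, 15 of 15, with Sparc at 1182 ± 33.1 TPM, Col3a1 at 569 ± 6.44 TPM and Col1a1 at 346 ± 25.4 TPM. Of the 8 tendon-type genes, 6 were detected. Col1a1, Dcn at 69.1 ± 4.99 TPM and Thbs4 at 39.3 ± 2.90 TPM were the highest, while Mkx had 0.52 and 0.46 TPM and Tnmd, a marker of mature tendon, had 0.10 and 0.19 TPM.

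Several of the members are also expressed outside the heart, so markers of neighbouring tissue were read beside them. None of 16 markers of pharyngeal, limb and body wall mesenchyme was detected in both libraries. The highest 3 were Dlx5 with 0.80 and 1.20 TPM, Barx1 with 1.04 and 0.72 TPM and Alx1 with 0.37 and 0.82 TPM, and the list summed to 4.70 and 4.99 TPM, below the level of Scx alone. Of the 8 neural crest and glial markers, 3 were detected, among them Erbb3 at 6.18 ± 0.0636 TPM and Ngfr at 3.62 ± 0.651 TPM. Erbb3 is also on the list of receptors and SMADs. Sox10, which defines migrating crest and glia, had 0.23 and 0.21 TPM, and Foxd3 had 0.02 and 0.00 TPM. Of 6 skeletal muscle precursor markers, Myog alone was detected, with 1.00 and 1.74 TPM from 33 and 52 reads. None of the 6 was detected at 1 CPM or at 5 TPM. The next highest were Myod1 with 0.41 and 0.21 TPM and Myf6 with 0.11 and 0.08 TPM. Endocardial markers Pecam1, Tek and Tie1 were at 57.5 ± 2.73, 55.9 ± 2.13 and 55.1 ± 2.30 TPM. Epicardial markers Upk3b, Krt19 and Tcf21 were at 73.7 ± 0.481, 71.9 ± 0.467 and 62.2 ± 1.10 TPM. The share of each member's RNA that came from cushion, epicardium or other cells was not measured.

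**Figure D4:**
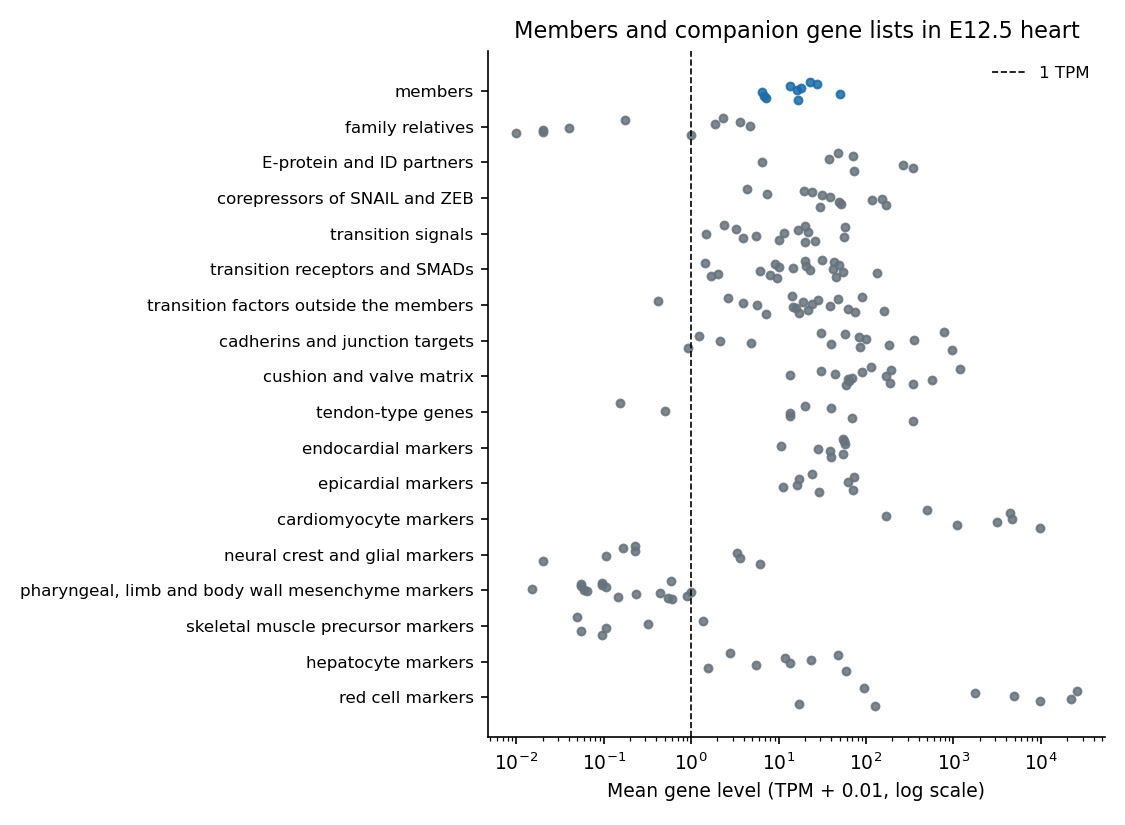
Mean level of each listed gene in TPM (horizontal axis, log scale, 0.01 added), 1 point per gene and 1 row per list, with the members in blue and a dashed line at 1 TPM. The members lie between 6.52 and 50.4 TPM, while all 16 pharyngeal, limb and body wall mesenchyme markers have means of 1.00 TPM or less.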

How the data were processed

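Total RNA over 200 nt (10 ng, mirVana extraction, spike-ins added; the protocol cites a SMARTer Ultra Low kit manual) was sequenced as 1 library per replicate, per the labels. Per the deposited notes, reads were quantified on mm10 with GENCODE M4, per gene and per transcript; no source used here names the aligner, the quantifier or the strand setting. The authors deposited expected counts (estimated reads, shared reads divided), TPM, FPKM and isoform percent, with posterior SDs, effective lengths and credibility bounds, whose level is not stated. Symbols and transcript types came from GENCODE M21 (42462 of 43346 gene rows matched; all 42 member transcripts typed). TPM includes spike-ins in its total. From these were computed means, SDs, log2 ratios of TPM + 0.1 and robust SDs (scaled median absolute deviations) in 20 bins of like abundance, in Python 3.11.15 with pandas 2.3.3. Alternatives used edgeR 4.0.16 (TMM) and DESeq2 1.42.0 (size factors), counts rounded. The rules for pairs and for differences between libraries were tested on simulated gene counts, with effective lengths held the same in both libraries. That simulation did not cover transcript shares, sums over coding transcripts, overlaps or sequences. With 1 group of 2 libraries no p-value was computed; spreads are those between these 2 samples. Named genes were all members and relatives of a pair, the 3 highest of every other list, any detected E protein, ID, cadherin or neighbouring-tissue marker, and overlapping genes; others named (Snai3, Msx3, Ferd3l, Scrt1, Scrt2, Meox2, Mkx, Tnmd, Sox10 and Foxd3) were chosen after their values were seen. Members and lists were chosen with earlier results of these data known. Promoter windows came from RefSeq (GRCm38.p6), matched by symbol for 7 of 10 members. A marker gene and some coding stretches of members are not reported here.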

Additional observations from a re-analysis of the deposited data

How the results depend on the processing

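Across 11 alternatives, the log2 ratios of Twist1 over Twist2 (2.13 to 2.79), Msx1 over Msx2 (0.86 to 1.23), Prrx1 over Prrx2 (-2.96 to -0.72) and Scx over Tcf15 (0.70 to 1.05) kept their sign and stayed apart. Several of these alternatives could hardly change that outcome. FPKM and TPM without globins scale all genes of a library alike, and a rule of 2 standard errors is only looser than the main rule. Snai1 over Snai2 became apart in CPM, at -0.46. Zeb1 over Zeb2 turned to -0.059 in CPM and -0.36 over coding transcripts, and was no longer apart at 4 standard errors (0.26) or in replicate 1 alone; leaving out a replicate gave 0.12 to 0.40. Of 9 neighbours, 3 were apart at 4 standard errors, 2 over coding transcripts, and 3 to 3 without 1 replicate; the cause of these changes was not tested. At 2 robust SD in TPM, 2 members (Zeb1 and Scx) were set apart between libraries. Over coding transcripts, Prrx2 at -2.65 and Scx at 2.31 lay beyond 2 robust SD. By reads instead of TPM, Zeb1-201 held 78.6%, Prrx2-201 76.0%, Zeb2-201 46.8% and Msx2-201 99.0%. All 10 members stayed detected at 0.5 TPM, 5 TPM, 1 CPM and in each library alone. TPM rescaled over nuclear protein-coding genes without globins raised every member, Prrx2 to 69.1 TPM and Scx to 8.94 TPM. No paired analysis was possible because the labels give 1 group. Scx rests on the fewest reads, 138 and 164.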
